A study of Danio rerio with 5 samples.

Results

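The genes described here are the integrin subunits of zebrafish skin, other than the hemidesmosome subunits, together with the cytoplasmic proteins of the focal adhesion. They were chosen by gene symbol, with earlier results of these data known. The rule took all symbols beginning with itga or itgb, leaving out itgb4, itga6a and itga6b, and added the talins, kindlins, ilk, paxillins, vinculins, parvins, focal adhesion kinase genes, zyx, lims1 and lims2. It gave 53 of the 30849 gene symbols in the count table. Of these, 14 encode integrin alpha subunits, 9 beta subunits, 6 subunits of leukocyte or thrombocyte type, 3 talins and 3 kindlins. A further 7 belong to the ILK-PINCH-parvin complex, 4 to the focal adhesion kinase family and 5 to the adaptors and actin linkers. The symbols itgb1bp1 and itgbl1 match the rule but name no integrin subunit. The 5 RNA-seq libraries came from 3 sorted populations of fish of a Tubingen-derived strain. Adult basal cells of the caudal fin, carrying Tg(itgb4:mcherry), made 1 library. Embryonic basal precursors with the same transgene made 2 libraries at 1 day after fertilization. Embryonic periderm cells of the same age made 2 libraries and came from another line, with krt4:creERt2, the recombination reporter Olactb:loxP-dsRed2-loxP-egfp and the lens marker cryaa:egfp. Each sort rested on 1 reporter promoter, so a cell of another kind with reporter activity could enter it. Age and body site both separate the adult library from the rest. Whether the 2 libraries of an embryonic population stem from different clutches is not given by the labels, so the p-values reflect spread between libraries that may be technical.

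Integrins are membrane receptors made of an alpha and a beta chain. The chains together bind laminin, collagen, fibronectin or counter-receptors on other cells. Talins and kindlins bind the beta tail and switch the receptor on, the ILK-PINCH-parvin complex, paxillin, vinculin and zyxin tie it to actin, and focal adhesion kinase passes on the signal. In mammalian skin, basal keratinocytes hold to the basement membrane through laminin-binding integrins, of which those in hemidesmosomes contain the beta 4 chain.

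Gene totals were 3521994 counts in the adult library, 5522943 and 4904831 in embryonic basal precursors and 4622900 and 7505594 in periderm. Levels are CPM, counts per 1000000 of the library total, scaled by the trimmed mean of M values (TMM). A floor of 3 counts stood at 1.37 CPM for adult cells and at 0.338 to 0.566 CPM for the embryonic libraries. Floors and counting intervals cover counting error only. The sort gene itgb4 measured 3907 CPM in the adult library, 487 and 497 CPM in basal precursors and 9.64 and 41.4 CPM in periderm. All 8 basal epidermis and all 11 periderm markers had counts in every library, and the basal regulator tp63 measured 346 CPM in the adult library, 195 and 218 CPM in basal precursors and 26.6 and 66.3 CPM in periderm. In the embryonic comparison described below, 1 of the 8 basal markers was called higher, itgb4, and 9 of the 11 periderm markers lower. The periderm sort gene krt4 was not among them, at 23935 and 18196 CPM in basal precursors and 60446 and 31030 CPM in periderm. The basal marker krtt1c19e had a log2 change of -0.08 in that comparison. krt5, listed as a periderm marker, was highest in the adult library, at 30942 CPM against 4428 and 2837 CPM in periderm. Markers of muscle and mesenchyme were present in the embryonic sorts and low in the adult one. The summed skeletal muscle markers (14 genes) reached 5.95 CPM in the adult library, with 10 at 0, against 22110 and 41489 CPM in basal precursors and 20288 and 47041 CPM in periderm. The mesenchyme list (14 genes) summed to 88.8 CPM in the adult library, to 1536 and 1263 CPM in basal precursors and to 346 and 419 CPM in periderm. The leukocyte list (14 genes in the table) summed to 3592 CPM in the adult library. It summed to 101 and 77.6 CPM in basal precursors and to 178 and 295 CPM in periderm. Of the adult sum, cd74a made up 3150 CPM and rac2 338 CPM. rac2 alone made up 96.6 and 65.6 CPM in basal precursors, and 27.1 and 41.9 CPM in periderm.

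Between the embryonic populations, most integrin and focal adhesion transcripts stood at higher levels in basal precursors, and few of these differences passed the test. The beta 3 subunit gene itgb3a and the paxillin gene pxna were called higher in basal precursors, and no tested gene of the set was called lower. edgeR's quasi-likelihood test with Benjamini-Hochberg adjustment thus called 2 of the 41 genes that passed the filter on low counts (4.88%), against 3.50% of all 15589 genes tested. Both were higher, against 0.956% of all genes called higher and 2.54% called lower. The other 12 genes of the set were not tested in this comparison. The log2 change was positive in 34 of the 41 (82.9%), against 49.1% of all genes, with a median of 0.93 against -0.02. In 23 of the 41 (56.1%) both basal libraries lay above both periderm libraries, against 22.8% of all genes, and in 2 both lay below, against 24.2% of all genes. At an unadjusted p under 0.05 there were 17 of the 41 (41.5%), against 18.5% of all genes, with 16 higher and 1 lower, itgb2. DESeq2 called 10 higher and 0 lower, and 8.96% of all genes. The calls moved with single libraries, as did the share of all genes called, in fits that leave 1 residual degree of freedom. Without periderm replicate 1 the median log2 change was 0.65, against 0.01 for all genes. It was 1.19 against 0.05 without periderm replicate 2 and 0.98 against -0.05 without basal replicate 1. Without basal replicate 2 it was 0.88 against -0.14. The mesenchyme list also stood higher in basal precursors, with 3 of its 13 tested genes called higher and none at 0 in any embryonic library. The pigment list stood lower, at 47.7 and 135 CPM in basal precursors and 1286 and 886 CPM in periderm, as did the neural list, at 252 and 289 CPM in basal precursors and 1151 and 728 CPM in periderm. Of the pigment list 5 of 7 genes and of the neural list 3 of 10 were called lower, as were 4 of 10 tested genes of the leukocyte list and 3 of 4 of the thrombocyte and blood list, whose other gene was called higher. The thrombocyte and blood list summed to 538 and 377 CPM in basal precursors and 514 and 633 CPM in periderm, and the pigment cell regulator mitfa was at 0 in basal replicate 2. The part of these markers in the result was not tested. In bulk samples such as these, fewer cells of a type and less RNA per cell cannot be told apart.

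**Figure D1:**
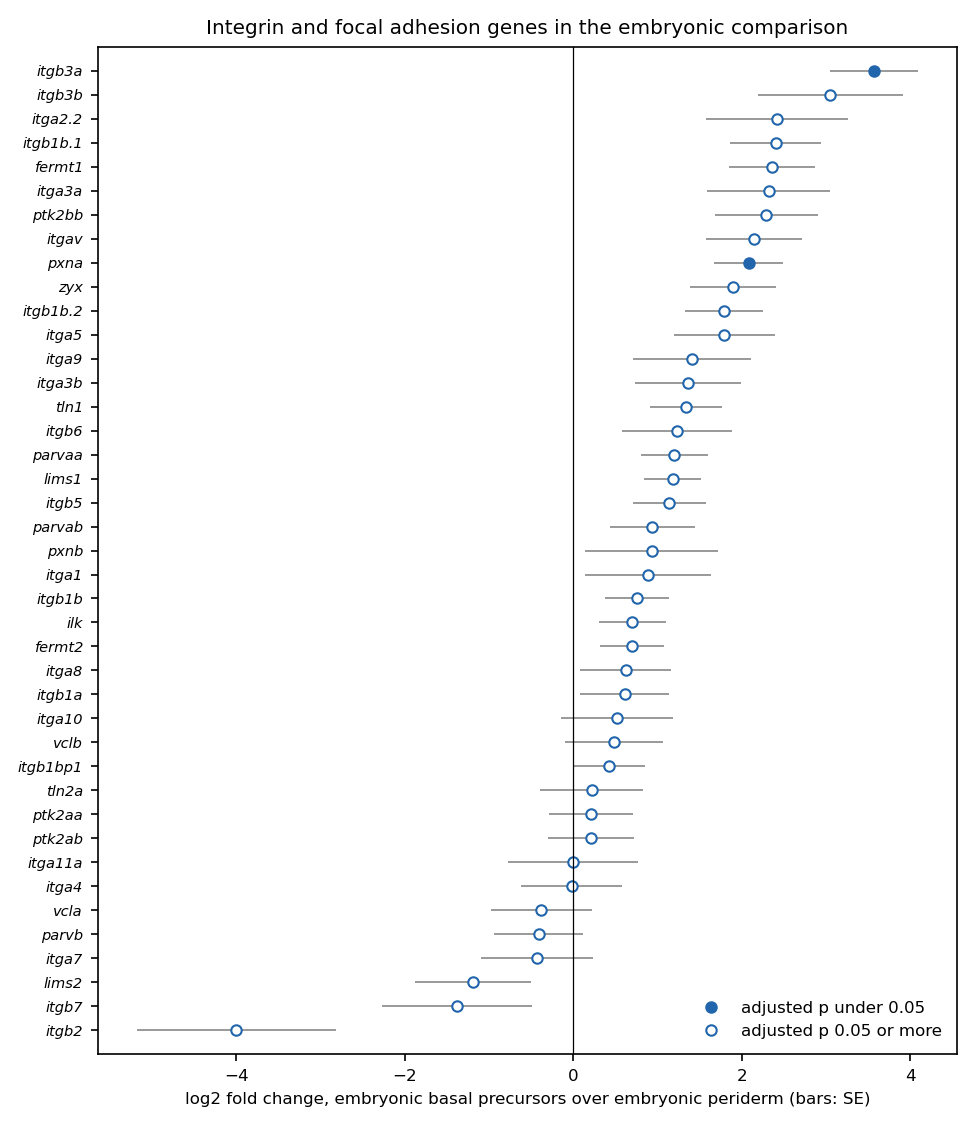
Log2 fold change of embryonic basal precursors over embryonic periderm for the 41 tested integrin and focal adhesion genes, with standard errors as bars (2 libraries a group). Filled points passed an adjusted p of 0.05. 34 of the 41 lie right of 0, and itgb3a and pxna are the filled points.

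The adult basal library was set against embryonic basal precursors in a fit of all 5 libraries, in which the single adult library was assumed to vary like the embryonic ones. Transcripts of 6 genes rose in the adult cells and those of 9 fell, 15 of 45 tested (33.3%) against 23.1% of all 18147 genes. In this fit a gene could pass the filter on low counts through 1 library. itgae.1 did so through the adult library alone, so its calls depend on its high adult level. The genes that rose were the subunit genes itga3a, itgav, itgb6, itgb2 and itgae.1 and the kindlin gene fermt3b. Their share was 13.3%, against 11.6% of all genes called higher. Those that fell were itga4, itga7, itga9, itgb1a, itgb1b.2, fermt2, tln2a, parvab and parvb (20%, against 11.4% of all genes called lower). The adult value lay above both basal libraries for 16 of the 45 (35.6%, against 35.2% of all genes) and below both for 23 (51.1%, against 50.4%). The median log2 change was -0.42 over the 45, against -0.59 over all genes. The split depended on scaling: 9 were higher and 8 lower with RLE size factors, and 3 were higher and 14 lower with library totals alone. The share of all genes called in either direction was then 23.5% and 29.7%. The median of all genes was -0.39 and -1.38 in these settings, and that of the 45 genes -0.21 and -1.19.

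Against embryonic periderm, 11 genes rose in the adult basal library and 8 fell, 19 of 45 (42.2%) against 28.6% of all genes. The genes that rose were itga2.2, itga3a, itga5, itgav, itgae.1, itgb3a, itgb5, itgb6, tln1, parvaa and pxna (24.4%, against 14.2% of all genes called higher). Those that fell were itga4, itga7, fermt2, tln2a, lims2, parvab, parvb and vcla (17.8%, against 14.4% of all genes called lower). The adult value lay above both periderm libraries for 22 of the 45 (48.9%, against 35.2% of all genes) and below both for 17 (37.8%, against 53.6%). The median log2 change was 0.51 over the 45, against -0.72 over all genes. With RLE size factors 12 were higher and 8 lower, and with library totals 8 were higher and 13 lower. In these settings 28.4% and 38.2% of all genes were called, with medians of all genes of -0.59 and -1.66. The median of the 45 genes turned to -0.43 with library totals, and was 0.64 with RLE size factors. Both adult comparisons share the adult library, so the 4 genes higher in both (itga3a, itgav, itgae.1, itgb6) and the 6 lower in both (itga4, itga7, fermt2, tln2a, parvab, parvb) are not separate results.

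Among alpha subunits, the laminin receptor chain genes of the alpha 3 type differed in their order of level. itga3a measured 92.5 CPM in the adult library, 5.28 and 6.5 CPM in basal precursors and 0.727 and 1.46 CPM in periderm, and no 2 populations overlapped. It was 15.6-fold higher in the adult library than in basal precursors (log2 change 3.97, SE 0.54, adjusted p = 0.00296) and 78.8-fold higher than in periderm (log2 change 6.30, SE 0.61, adjusted p = 8.93e-04; 6.95 without periderm replicate 2). Its duplicate itga3b measured 18.8 CPM in the adult library, 67.7 and 47.5 CPM in basal precursors and 8.55 and 35.1 CPM in periderm. The adult value of itga3b lay below both basal libraries and between those of periderm, and no comparison of it passed (adjusted p = 0.202 against basal precursors). Counted per kilobase of transcript row, itga3a made up 89.5% of the pair in the adult library, 11.9% and 19.1% in basal precursors and 12.8% and 6.72% in periderm. This ratio within a library does not depend on scaling between libraries.

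Of the chains that bind the RGD motif of fibronectin and vitronectin, itgav and itga5 stood high among alpha subunits and itga8 did not. Per kilobase of transcript row, itgav and itga5 reached 121 and 45.4 CPM in the adult library, 28.5 and 29.8 CPM in basal precursors and 6.25 and 8.44 CPM in periderm. itgav measured 517 CPM in the adult library, 116 and 129 CPM in basal precursors and 12 and 41.6 CPM in periderm, so that the adult library was highest and periderm lowest with no overlap. itgav rose 4.23-fold in the adult library over basal precursors (log2 change 2.08, SE 0.64, adjusted p = 0.0492) and 19.1-fold over periderm (log2 change 4.26, SE 0.66, adjusted p = 0.00384). itga5, the fibronectin receptor chain, measured 245 CPM in the adult library, 197 and 125 CPM in basal precursors and 19.8 and 71.3 CPM in periderm. The order of populations was the same as for itgav, and itga5 was 5.35-fold higher in the adult library than in periderm (log2 change 2.42, SE 0.69, adjusted p = 0.0323). In the embryonic comparison the log2 changes were 2.15 for itgav (adjusted p = 0.0896) and 1.79 for itga5 (adjusted p = 0.157). itga8, a further chain of this group, measured 1.37 CPM in the adult library, from 3 counts, 10.9 and 16.4 CPM in basal precursors and 6.37 and 11 CPM in periderm. The adult value was below every embryonic one, and neither comparison passed (adjusted p = 0.0553 against basal precursors). Among 12 alternatives, itga8 passed in 6 against basal precursors and in 1 against periderm. The itgav call over basal precursors ended without basal replicate 1 (adjusted p = 0.127), with library totals (0.146), with every gene of at least 1 count (0.0762), with the older quasi-likelihood fit (0.0554) and with transcript rows summed (0.0715). The itga5 call ended without periderm replicate 1 (log2 change 1.78, adjusted p = 0.0827), with library totals (0.0901) and with rows summed (0.0515). The periderm libraries differed from each other, so that the log2 change over periderm was 5.44 for itgav and 3.64 for itga5 without periderm replicate 2, and 3.63 for itgav without periderm replicate 1. Both genes have 1 transcript row, so summing rows left their counts unchanged and moved the calls only through the fit of all genes.

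Collagen-binding chains were low in all libraries. itga2.2 measured 12.8 CPM in the adult library, 10.0 and 3.08 CPM in basal precursors and 1.09 and 1.24 CPM in periderm, and was 10.7-fold higher in the adult library than in periderm (log2 change 3.42, SE 0.95, adjusted p = 0.0305). The periderm values rest on 6 and 11 counts. The call ended without periderm replicate 1 (adjusted p = 0.0821) or periderm replicate 2 (0.0776), with library totals (0.0661) and with rows summed (0.05). A further symbol annotated as integrin alpha-2 had 0 counts in the adult library, 21 and 3 in basal precursors and 24 and 20 in periderm. Its adult value was thus the lowest, unlike that of itga2.2. itga10 measured 3.66 CPM in the adult library, 9.24 and 9.06 CPM in basal precursors and 9.82 and 3.15 CPM in periderm, where the libraries overlapped with the adult one. itga11a had 0 counts in the adult library, 3.39 and 6.84 CPM in basal precursors and 8.37 and 2.14 CPM in periderm, and the adult level was lower by at least 3.72-fold against basal precursors and 3.82-fold against periderm, neither of which passed (adjusted p = 0.142 and 0.129). Of the remaining chains, itga1 had 0 adult counts and at most 3.21 CPM elsewhere, itga11b reached 2.29 CPM in the adult library and at most 0.364 CPM elsewhere, and itga6l had 0 counts in all 5 libraries.

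The chains itga4, itga7 and itga9, partners of beta 1 in mammals, had 0 adult counts. itga4, a receptor chain for fibronectin and vascular counter-receptors, had 0 counts in the adult library, 8.49 and 22.4 CPM in basal precursors and 10.9 and 19.7 CPM in periderm. itga7, the laminin receptor chain of skeletal muscle, had 0 counts in the adult library, 7.54 and 20.3 CPM in basal precursors and 10.2 and 26.7 CPM in periderm. itga9, which is related to itga4, had 0 counts in the adult library, 13.4 and 39.0 CPM in basal precursors and 4.73 and 14.3 CPM in periderm. For all 3 genes the adult library stood apart, and in both embryonic populations replicate 2 was higher than replicate 1. Against basal precursors, itga4 was at least 11.2-fold lower in the adult library (adjusted p = 0.0284), itga7 at least 10.1-fold (adjusted p = 0.0418) and itga9 at least 19.1-fold (adjusted p = 0.0275), taking 3 counts as the adult floor. Against periderm, itga4 was at least 11.1-fold lower (adjusted p = 0.0236) and itga7 at least 13.4-fold (adjusted p = 0.0265), while itga9 did not pass (at least 6.92-fold, adjusted p = 0.0603), although it did in 8 of 12 alternatives (adjusted p between 0.0155 with DESeq2 and 0.0825 with rows summed over all 12). The itga7 call over basal precursors ended without basal replicate 2 (adjusted p = 0.0516) and with rows summed (0.0709). Skeletal muscle marker sums also lay higher in replicate 2 of both embryonic populations and near 0 in the adult library, and their part in these results was not tested.

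Among beta subunits, itgb3a, whose product pairs with alpha v, was the first of the 2 embryonic calls. It measured 186 CPM in the adult library, 88.4 and 41.4 CPM in basal precursors and 6.18 and 4.61 CPM in periderm, with no overlap between populations. itgb3a was 11.9-fold higher in basal precursors than in periderm (log2 change 3.57, SE 0.52, adjusted p = 0.0187). Without basal replicate 1 the log2 change was 2.96. In the adult library it was 34.7-fold above periderm (log2 change 5.12, SE 0.59, adjusted p = 0.00148), and its 2.87-fold higher level than in basal precursors did not pass (log2 change 1.52, SE 0.54, adjusted p = 0.0751; 2.13 and 0.0427 without basal replicate 1). The embryonic call ended without periderm replicate 1 (adjusted p = 0.132) or periderm replicate 2 (0.0726) and with rows summed (0.074). Its duplicate itgb3b measured 2.29 CPM in the adult library, 13 and 5.13 CPM in basal precursors and 0.364 and 1.58 CPM in periderm, with an embryonic log2 change of 3.05 (SE 0.86, adjusted p = 0.103). The itgb3b change was 2.24 without basal replicate 1 and 4.55 without periderm replicate 2, and it passed without basal replicate 2 (3.56, adjusted p = 0.0428) and with DESeq2 (0.0223). Per kilobase, itgb3a made up 98.9% of the pair in the adult library, 88.1% and 89.8% in basal precursors and 94.9% and 76.2% in periderm.

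The alpha v partner genes itgb6 and itgb5 followed the order of itgav. itgb6, an epithelial subunit known in mammals for activating TGF-beta, measured 153 CPM in the adult library, 24.3 and 23.8 CPM in basal precursors and 3.82 and 15.9 CPM in periderm. It was 6.36-fold higher in the adult library than in basal precursors (log2 change 2.67, SE 0.68, adjusted p = 0.0267) and 15.1-fold higher than in periderm (log2 change 3.92, SE 0.70, adjusted p = 0.00618). itgb5 measured 45.8 CPM in the adult library, 21.7 and 25.1 CPM in basal precursors and 10.9 and 10.0 CPM in periderm, and was 4.37-fold higher in the adult library than in periderm (log2 change 2.13, SE 0.49, adjusted p = 0.0162). In neither gene did populations overlap, and in the embryonic comparison neither passed (log2 change 1.23 and adjusted p = 0.383 for itgb6, 1.14 and 0.209 for itgb5). itgb8, a further partner, did not follow it and had 0 counts in the adult library and at most 0.727 CPM elsewhere. The itgb6 call over basal precursors ended without basal replicate 1 (adjusted p = 0.0705) and with library totals (0.058), and its log2 change over periderm was 3.27 without periderm replicate 1 and 5.33 without periderm replicate 2. The itgb5 call ended without periderm replicate 2 (adjusted p = 0.0504) and with library totals (0.122).

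The beta 1 chain, the common partner of most alpha chains, was carried by 4 symbols with different patterns. itgb1b.1 measured 244 CPM in the adult library, 404 and 388 CPM in basal precursors and 36.4 and 111 CPM in periderm, so that basal precursors were highest and periderm lowest. Its embryonic log2 change was 2.40 (SE 0.54, adjusted p = 0.0583). It passed when periderm replicate 2 was left out (3.44, adjusted p = 0.0333) or basal replicate 2 (0.0197), and under RLE size factors (0.0499), library totals (0.0381) and DESeq2 (5.43e-04). itgb1b measured 112 CPM in the adult library, 77.3 and 81.9 CPM in basal precursors and 35.6 and 56.9 CPM in periderm, and no comparison of it passed. itgb1b.2 measured 10.1 CPM in the adult library, 99.0 and 50.8 CPM in basal precursors and 26.2 and 16.7 CPM in periderm. Here the adult library was lowest, 7.41-fold below basal precursors (log2 change -2.89, SE 0.71, adjusted p = 0.0246; 0.0587 without basal replicate 1). itgb1a measured 3.66 CPM in the adult library, 18.5 and 41.5 CPM in basal precursors and 14.0 and 24.4 CPM in periderm, and was 8.16-fold lower in the adult library than in basal precursors (log2 change -3.03, SE 0.90, adjusted p = 0.0445). The itgb1a call ended without basal replicate 2 (log2 change -2.33, adjusted p = 0.103), with RLE size factors (0.0546) and with every gene of at least 1 count (0.0519). The symbols itgb1b, itgb1b.1 and itgb1b.2 neighbour each other in the RefSeq annotation, and a further symbol annotated as integrin beta-1-like had 124 counts in the adult library, 194 and 239 in basal precursors and 96 and 304 in periderm. How reads shared by such near copies were assigned is not given in the sources used here, so the split among them is uncertain.

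**Figure D2:**
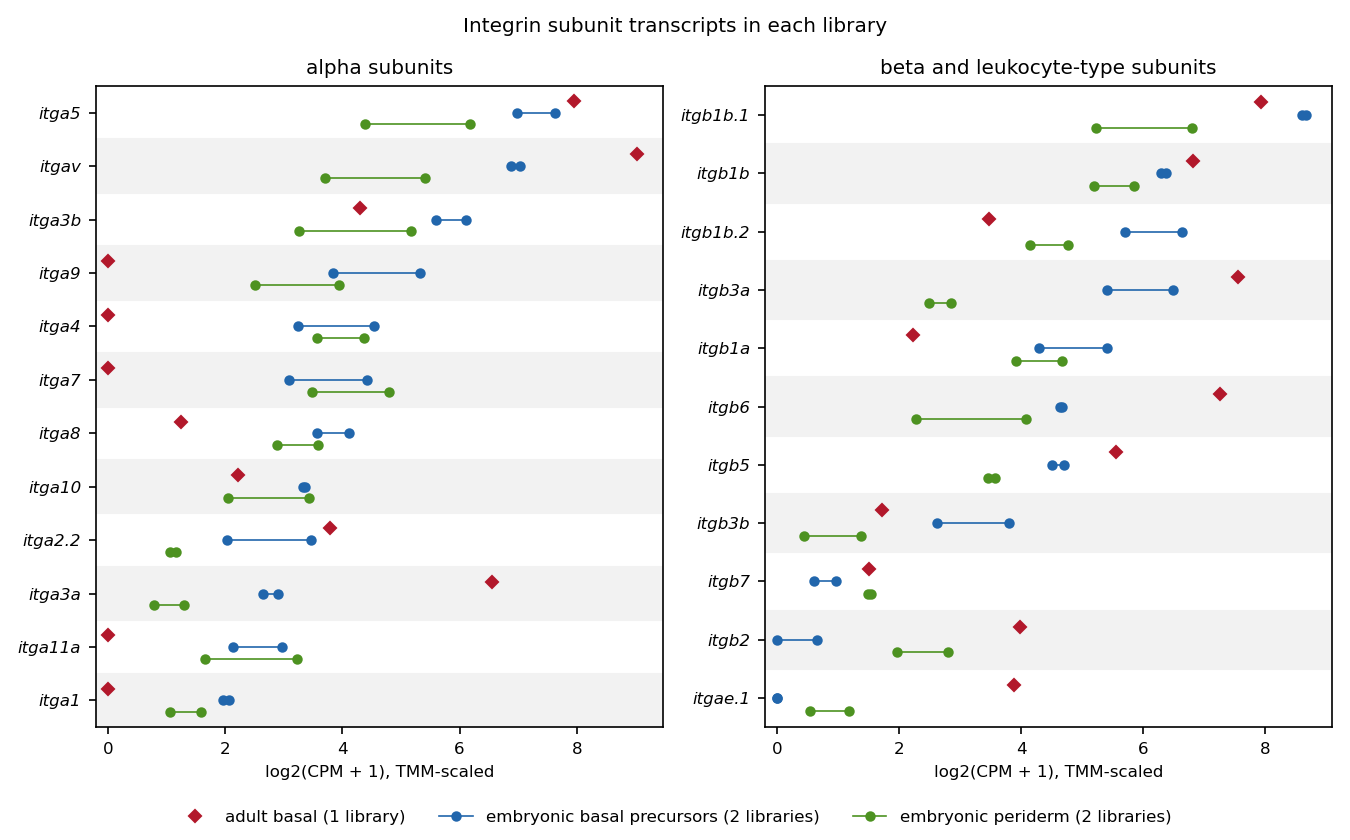
Level of integrin subunit genes in each library as log2(CPM + 1), one row a gene, with the adult basal library as a diamond and the 2 libraries of each embryonic population as joined points. itgav, itga3a, itgb3a and itgb6 are highest in the adult library, while itga4, itga7 and itga9 have 0 adult counts.

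Among subunits of leukocyte type, itgb2 and itgae.1 were highest in the adult library. itgb2, the common beta chain of leukocyte integrins, measured 14.7 CPM in the adult library, 0.566 and 0 CPM in basal precursors and 2.91 and 5.96 CPM in periderm. itgae.1, the chain that in mammals binds E-cadherin on epithelium, measured 13.7 CPM in the adult library, 0 in both libraries of basal precursors and 1.27 and 0.45 CPM in periderm. For both genes the adult library lay above every embryonic one. itgae.1 passed the filter on low counts through the adult library alone, so its adjusted p is no separate support for that level. The adult level of itgb2 was 54.5 times that of basal precursors (95% counting interval 18.6 to 264, on 3 counts, adjusted p = 0.0128), and itgae.1 was at least 25.5-fold higher (adjusted p = 0.0118). The 3 counts of itgb2 all lay in basal replicate 1, and its fitted log2 change of 5.65 was 9.32 without that library, where basal precursors were at 0, and 4.64 without basal replicate 2. Against periderm, itgae.1 had a log2 change of 4.08 (SE 1.02, adjusted p = 0.0239) and itgb2 one of 1.68 (SE 0.91, adjusted p = 0.184). The itgae.1 call over periderm ended without periderm replicate 1 (log2 change 4.86, adjusted p = 0.0571) or periderm replicate 2 (3.42, adjusted p = 0.0979). The leukocyte antigen ptprc measured 20.2 CPM in the adult library, 0 in both basal libraries and 3.64 and 4.50 CPM in periderm, beside the leukocyte list sums given above, of which cd74a made up 3150 CPM in the adult library. The tested leukocyte genes had a median log2 change of 4.22 in the adult library over basal precursors and of 0.11 over periderm. While ptprc was higher than in periderm, mfap4 was lower, at 0.458 CPM in the adult library and 42.4 and 93.5 CPM in periderm. Of the 13 tested leukocyte genes, 7 were called higher and 0 lower in the adult library over basal precursors, against 23.1% of all genes called. Over periderm 2 were called higher, cd74a (log2 change 12.99) and rac2 (3.29), and 1 lower, mfap4 (-7.15), against 28.6% of all genes called. Like itgae.1, cd74a passed the filter through the adult library alone. The part of leukocyte transcripts in either result was not tested. Of the others, itgae.2 had 2.29 CPM in the adult library, 0 in basal precursors and at most 0.364 CPM in periderm. itgb7 had 1.83 CPM in the adult library, 0.943 and 0.513 CPM in basal precursors and 1.82 and 1.91 CPM in periderm, itgam had at most 0.513 CPM, and the thrombocyte chain gene itga2b had 0 counts in all 5 libraries.

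The talins, which join the beta tail to actin, showed tln1 nearly alone in the adult library. tln1 measured 236 CPM in the adult library, 89.0 and 126 CPM in basal precursors and 28.9 and 54.5 CPM in periderm, with no overlap between populations. It was 5.63-fold higher in the adult library than in periderm (log2 change 2.49, SE 0.51, adjusted p = 0.0103) and 2.19-fold higher than in basal precursors, which did not pass (adjusted p = 0.146). tln2a, of the talin type prominent in mammalian muscle, had 0 counts in the adult library, 19 and 42.4 CPM in basal precursors and 13.5 and 37.9 CPM in periderm. At the level of basal precursors 67.1 adult counts would have been seen. tln2a was at least 22.4-fold lower in the adult library than in basal precursors (adjusted p = 0.0176) and at least 18.7-fold lower than in periderm (adjusted p = 0.0167). tln2b had 1 adult count and at most 2.07 CPM elsewhere. Per kilobase, tln1 made up 99.8% of talin in the adult library, 81.8% and 75.7% in basal precursors and 68.1% and 60.6% in periderm.

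Kindlins, the second class of integrin activators, differed among their 3 genes. fermt1, the kindlin of mammalian epithelia, measured 72.8 CPM in the adult library, 240 and 145 CPM in basal precursors and 21.8 and 51.4 CPM in periderm. Basal precursors stood above the adult library and periderm below it, with an embryonic log2 change of 2.36 (SE 0.51, adjusted p = 0.0524) that passed with RLE size factors (0.046), library totals (0.0319), DESeq2 (5.90e-04) and without basal replicate 2 (0.00724). fermt2, which is expressed widely in mammals, had 1 count (0.458 CPM) in the adult library, 83.4 and 93.2 CPM in basal precursors and 40.2 and 66.2 CPM in periderm. The adult library was far below the embryonic ones. The level in basal precursors was 193 times the adult one (95% counting interval 34.6 to 7612, adjusted p = 0.0024) and that in periderm 116 times (20.8 to 4586, adjusted p = 0.00293). fermt3b, of the blood-cell kindlin type, measured 7.79 CPM in the adult library, 0.566 and 0.171 CPM in basal precursors and 1.09 and 3.15 CPM in periderm. Like itgb2 it was highest in the adult library, 20.4-fold above basal precursors (log2 change 4.35, SE 1.23, adjusted p = 0.0328). Its call ended without basal replicate 1 (log2 change 5.30, adjusted p = 0.0927) or basal replicate 2 (3.73, adjusted p = 0.142) and with library totals (0.0577). Per kilobase, fermt1 made up 90.4% of kindlin in the adult library, 88.9% and 81.4% in basal precursors and 58.8% and 66% in periderm. fermt2 made up 0.201% in the adult library, 10.9% and 18.5% in basal precursors and 38.4% and 30.1% in periderm.

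In the ILK-PINCH-parvin complex, ilk and lims1 passed in no comparison, while lims2 and 3 parvins did. ilk, the scaffold pseudokinase, measured 172 CPM in the adult library, 268 and 192 CPM in basal precursors and 100 and 178 CPM in periderm. lims1, a PINCH adaptor, measured 139 CPM in the adult library, 192 and 159 CPM in basal precursors and 68.2 and 84.8 CPM in periderm. Their adjusted p lay between 0.11 for lims1 in the embryonic comparison and 0.665 for ilk in the adult library over periderm, which does not show that levels were equal. The second PINCH gene, lims2, had 0 counts in the adult library, 4.53 and 9.06 CPM in basal precursors and 7.27 and 23.0 CPM in periderm. It was at least 11-fold lower in the adult library than in periderm (adjusted p = 0.0327) and at least 4.94-fold lower than in basal precursors, which did not pass (adjusted p = 0.0868). The difference of lims2 from basal precursors passed in 6 of 12 alternatives.

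Among the parvins, which carry the complex to actin, parvaa was the form of the adult library. It measured 98.5 CPM there, 40.5 and 33.5 CPM in basal precursors and 17.6 and 14.2 CPM in periderm, and no populations overlapped. parvaa was 6.20-fold higher in the adult library than in periderm (log2 change 2.63, SE 0.46, adjusted p = 0.00582) and 2.66-fold higher than in basal precursors (log2 change 1.41, SE 0.46, adjusted p = 0.0584). Its duplicate parvab had 0 counts in the adult library, 15.7 and 11.8 CPM in basal precursors and 6.55 and 7.43 CPM in periderm. parvb likewise had 0 counts in the adult library, 19.8 and 40.3 CPM in basal precursors and 24.6 and 53.9 CPM in periderm. The adult library lay below every embryonic one for both. parvab was at least 9.99-fold lower in the adult library than in basal precursors (adjusted p = 0.0169) and at least 5.08-fold lower than in periderm (adjusted p = 0.0294). parvb was at least 21.9-fold lower than in basal precursors (adjusted p = 0.0121) and at least 28.5-fold lower than in periderm (adjusted p = 0.00764). The parvab call over periderm ended without basal replicate 1 (adjusted p = 0.05), with rows summed (0.0508) and with the 3 libraries compared alone (0.0514). parvg, the form of mammalian blood cells, had 3 adult counts (1.37 CPM) and at most 3.26 CPM elsewhere. Per kilobase, parvaa made up 98% of parvin in the adult library, 53.4% and 39.1% in basal precursors and 35.7% and 18.5% in periderm. parvb made up 0% in the adult library, 23.9% and 43.2% in basal precursors and 45.5% and 64.6% in periderm.

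In the focal adhesion kinase family, edgeR called 0 of 3 tested genes in each comparison. At an unadjusted p under 0.05 the embryonic comparison had 1 higher. The adult library over basal precursors had 1 higher and 1 lower, and that over periderm 2 higher. Of all genes, 18.5%, 37.8% and 42.4% lay under that p in these comparisons, in the same order. DESeq2 called 1, 0 and 2 of the 3 genes, against 8.96%, 27.2% and 33.6% of all genes. With 3 genes these counts do not set the family apart. ptk2bb, of the PYK2 type, measured 177 CPM in the adult library, 336 and 174 CPM in basal precursors and 23.8 and 77.7 CPM in periderm, and periderm was lowest. Its log2 change was 2.29 in basal precursors over periderm (SE 0.61, adjusted p = 0.0894; 3.42 without periderm replicate 2) and 1.79 in the adult library over periderm (SE 0.69, adjusted p = 0.0859). ptk2ab, a focal adhesion kinase gene, measured 87.9 CPM in the adult library, 19.4 and 40.0 CPM in basal precursors and 17.6 and 32.6 CPM in periderm. Its duplicate ptk2aa measured 4.12 CPM in the adult library, 12.3 and 21.2 CPM in basal precursors and 11.5 and 16.9 CPM in periderm. The adult library was thus highest for ptk2ab and lowest for ptk2aa, with log2 changes against periderm of 1.80 (SE 0.59, adjusted p = 0.0532) and -1.78 (SE 0.81, adjusted p = 0.132). Per kilobase, ptk2ab made up 93.4% of the pair in the adult library, 51.4% and 55.8% in basal precursors and 50.7% and 56.4% in periderm. ptk2ba had 3 adult counts (1.37 CPM), 0 in basal precursors and 1.45 and 1.35 CPM in periderm.

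Among adaptors and actin linkers, the paxillin gene pxna was the second embryonic call. pxna measured 416 CPM in the adult library, 183 and 106 CPM in basal precursors and 29.1 and 38.3 CPM in periderm, with the populations in that order and no overlap. It was 4.22-fold higher in basal precursors than in periderm (log2 change 2.08, SE 0.41, adjusted p = 0.0419) and 12.3-fold higher in the adult library than in periderm (log2 change 3.62, SE 0.50, adjusted p = 0.0026). Against basal precursors the adult library was 2.87-fold higher, which did not pass (log2 change 1.52, SE 0.49, adjusted p = 0.0559). The embryonic call ended without periderm replicate 1 (adjusted p = 0.253), periderm replicate 2 (0.101) or basal replicate 1 (0.176), with every gene of at least 1 count (0.0504), with the older quasi-likelihood fit (0.0568) and with rows summed (0.0727). Its duplicate pxnb had 3 adult counts (1.37 CPM), 6.41 and 18.1 CPM in basal precursors and 2.36 and 9.90 CPM in periderm.

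zyx, which encodes zyxin at the actin end of the adhesion, measured 282 CPM in the adult library, 407 and 258 CPM in basal precursors and 50 and 126 CPM in periderm. Periderm was lowest, with a log2 change of 1.89 in basal precursors over periderm (SE 0.51, adjusted p = 0.092). The zyx log2 change was 2.73 without periderm replicate 2 (adjusted p = 0.0678), and it passed without basal replicate 2 (0.0267) and with DESeq2 (0.00924). vclb, a vinculin gene, measured 44.4 CPM in the adult library, 31.1 and 57.4 CPM in basal precursors and 15.3 and 46.8 CPM in periderm, where all populations overlapped. Its duplicate vcla measured 3.21 CPM in the adult library, 23.8 and 43.9 CPM in basal precursors and 20 and 66.4 CPM in periderm. The adult library was lowest, 13.5-fold below periderm (log2 change -3.75, SE 1.06, adjusted p = 0.0321) and 10.5-fold below basal precursors (log2 change -3.39, SE 1.06, adjusted p = 0.0518). The difference from basal precursors passed in 9 of 12 alternatives, among them DESeq2 (0.0125) and each fit without 1 embryonic library (0.0224 to 0.0479). The call over periderm ended without periderm replicate 2 (log2 change -2.62, adjusted p = 0.0569), and the log2 change was -4.36 without periderm replicate 1. Per kilobase, vclb made up 95.9% of vinculin in the adult library, 68.8% in each library of basal precursors and 56.2% and 54.3% in periderm. The symbols outside these classes, itgb1bp1 and itgbl1, passed in no comparison, at between 33.6 and 66.9 CPM and at most 1.71 CPM.

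**Figure D3:**
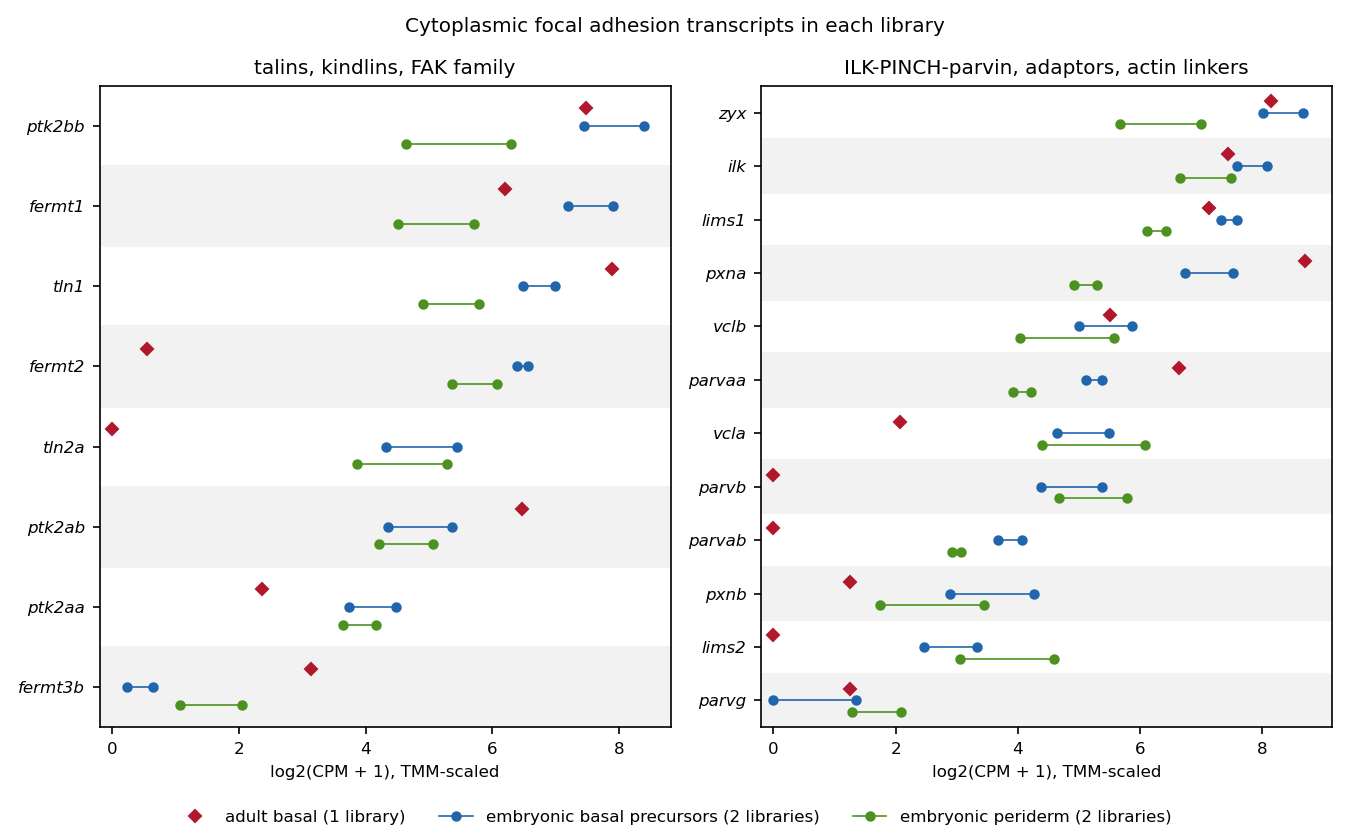
Level of cytoplasmic focal adhesion genes in each library as log2(CPM + 1), drawn as for the integrins. tln1, pxna, parvaa and ptk2ab are highest in the adult library, and tln2a, parvb, parvab and lims2 have 0 adult counts.

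In the talin, kindlin, PINCH, parvin, paxillin and vinculin families, in the pair ptk2aa and ptk2ab and in the beta 3 pair, 1 gene held over 90% of the summed level per kilobase in the adult library, and its share was smaller in every embryonic library. Other families differed. In the PYK2 pair, ptk2bb held 99.1% in the adult library, 100% in both libraries of basal precursors and 93.3% and 98% in periderm. Among the 4 beta 1 symbols the leading gene per kilobase in the adult library was itgb1b, with 51.9% there, 25.3% and 29.3% in basal precursors and 50.5% and 48.3% in periderm. By CPM itgb1b.1 led in the adult library, at 244 CPM against 112 CPM for itgb1b. The row of itgb1b has 1549 bases and that of itgb1b.1 has 3913, and the split of reads among these near copies is uncertain. The further integrin beta-1-like symbol did not enter these shares. Of the 53 genes, 13 had 0 adult counts, and 8 of those were above the adult floor of 1.37 CPM in every embryonic library: itga4, itga7, itga9, itga11a, lims2, parvab, parvb and tln2a. Their expected adult counts at the level of basal precursors ranged from 11.2 for itga11a to 67.1 for tln2a. The share of all genes with 0 adult counts was not worked out, so the numbers 13 and 8 do not set these genes apart. The adult library had the smallest gene total, and in it 50.4% of all tested genes lay below both basal libraries. The vessel list (8 genes) summed to 5.95 CPM in the adult library, with 6 at 0, to 75.6 and 131 CPM in basal precursors and to 118 and 124 CPM in periderm, beside the muscle and mesenchyme sums given above. The markers of these cell types were thus low in the same library in which the 8 genes were at 0, and their part in the result was not tested.

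**Figure D4:**
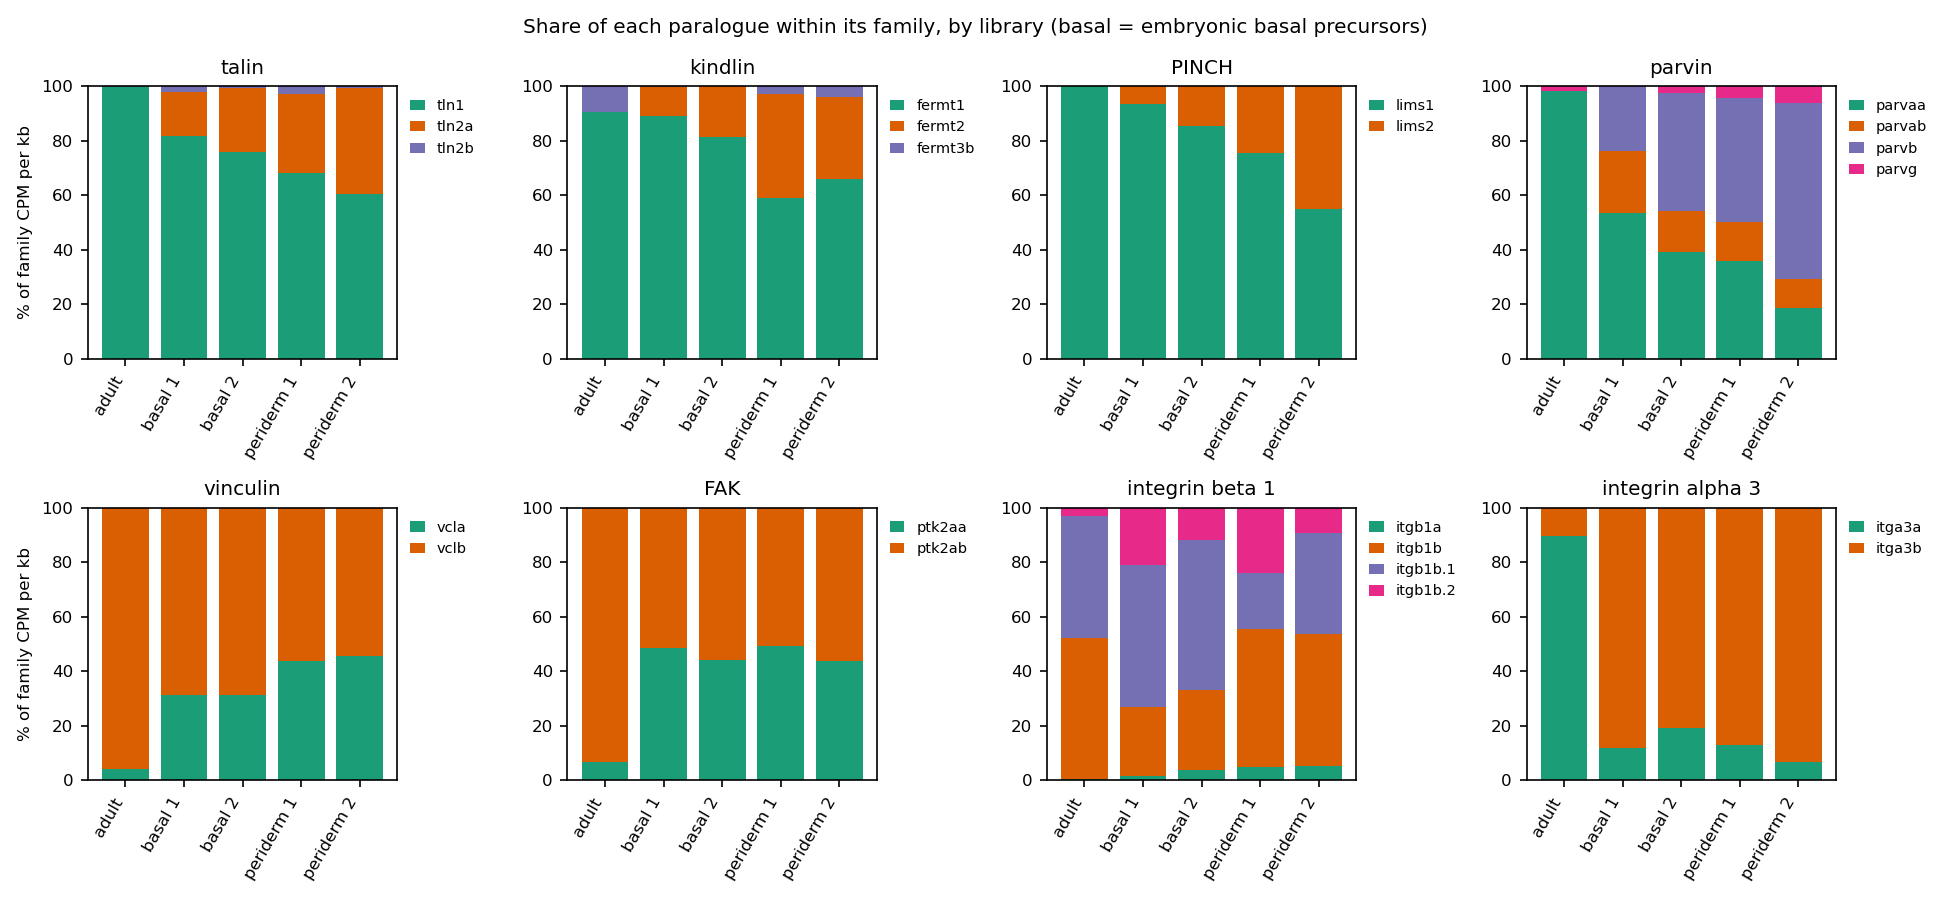
Share of each gene in its family's summed CPM per kilobase of transcript row, in percent, for each library (adult basal, embryonic basal precursors, embryonic periderm). tln1, lims1, parvaa, vclb and ptk2ab each hold over 90% of their family in the adult library, and a smaller share in every embryonic library.

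Further genes of the adhesion were described from a list of 117, of which 107 were in the table. In basal precursors over periderm, edgeR called 4 of 100 tested higher and 0 lower, with a median log2 change of 0.46. Of all genes 3.50% were called, 0.956% higher and 2.54% lower. The 4 were the actin cross-linker actn1, the LIM protein pdlim1, the Cas scaffold bcar1 and the kinase pak2a. actn1 measured 324 CPM in the adult library, 555 and 514 CPM in basal precursors and 68.7 and 124 CPM in periderm (log2 change 2.45, SE 0.41, adjusted p = 0.028). bcar1, which binds focal adhesion kinase, measured 121 CPM in the adult library, 159 and 135 CPM in basal precursors and 23.8 and 42.2 CPM in periderm (log2 change 2.13, SE 0.41, adjusted p = 0.0392). In both, periderm stood below the other libraries, as it did for pdlim1 (log2 change 2.33, adjusted p = 0.0333) and pak2a (log2 change 2.08, adjusted p = 0.0463). All 4 calls ended without periderm replicate 1 (adjusted p between 0.191 for actn1 and 0.279 for pak2a) and without basal replicate 1 (between 0.0592 for actn1 and 0.156 for pak2a), and those for pdlim1, bcar1 and pak2a also without periderm replicate 2 (0.0735, 0.0586 and 0.0751). With rows summed the count was 0, against 1.25% of all genes called. At an unadjusted p under 0.05 there were 27 higher and 7 lower, in both that setting and the one reported. In the one reported, 18.5% of all genes lay under that p. DESeq2 called 13 higher and 2 lower, against 8.96% of all genes called.

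In the adult library over basal precursors, 11 of 102 further genes rose and 9 fell. Of all genes 23.1% were called, 11.6% higher and 11.4% lower, so the share of the further genes was not above that of all genes. The LIM protein gene fhl3b measured 347 CPM in the adult library, 9.62 and 1.88 CPM in basal precursors and 10.7 and 2.48 CPM in periderm. It was 60.7-fold higher in the adult library than in basal precursors (log2 change 5.92, SE 0.95, adjusted p = 0.00531; 7.47 without basal replicate 1 and 5.17 without basal replicate 2). The filamin gene flnb was 14.2-fold higher (adjusted p = 0.00319), the caveolar coat gene cavin1b 9.21-fold (adjusted p = 0.0115) and bcar3, whose product binds Cas scaffolds, 5.29-fold (adjusted p = 0.00772). The linkers svila and tns1a and the endocytic adaptor dab2 had 0 adult counts. In that order they lay below basal precursors by at least 20.2-fold, 10.1-fold and 9.61-fold (adjusted p = 0.0226, 0.0407 and 0.0322), and the dab2 call ended without basal replicate 2 (adjusted p = 0.0561). A further tensin gene, tns1b, was not at 0 and measured 129 CPM in the adult library, 90.9 and 136 CPM in basal precursors and 46 and 82.8 CPM in periderm. With library totals alone, 5 of the 102 genes were higher and 21 lower, against 29.7% of all genes called.

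Against periderm, 24 of 102 further genes rose in the adult library and 11 fell. Of all genes 28.6% were called, 14.2% higher and 14.4% lower. cavin1b measured 316 CPM in the adult library, 40.2 and 28.5 CPM in basal precursors and 1.82 and 7.43 CPM in periderm, and was 65.3-fold higher in the adult library than in periderm (log2 change 6.03, SE 0.71, adjusted p = 0.00151; 5.41 without periderm replicate 1 and 7.43 without periderm replicate 2). fhl3b was 54.2-fold higher (adjusted p = 0.00454; log2 change 5.76, or 7.12 without periderm replicate 1 and 5.02 without periderm replicate 2). apbb1ip, the adaptor that brings talin to integrins, was 17.9-fold higher (adjusted p = 0.00263; log2 change 4.16, or 4.80 without periderm replicate 2) and the exchange factor gene dock5 15.4-fold (adjusted p = 0.00768; log2 change 3.95, or 3.28 and 5.63 without periderm replicates 1 and 2). The tetraspanin gene cd151, whose product binds laminin receptors in mammals, had 0 adult counts, 10.2 and 8.89 CPM in basal precursors and 20.2 and 57.0 CPM in periderm. It was at least 28.1-fold lower in the adult library than in periderm (adjusted p = 0.00815), and svila (at least 15.9-fold, adjusted p = 0.0227), tns1a (at least 15.1-fold, adjusted p = 0.0229) and dab2 (at least 13.1-fold, adjusted p = 0.0198) fell too. The further symbol cd151l was not at 0 and measured 244 CPM in the adult library, 546 and 268 CPM in basal precursors and 94 and 114 CPM in periderm. With library totals alone, 17 of the 102 genes were higher and 30 lower, against 38.2% of all genes called.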

How the data were processed

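RNA was sequenced from 5 libraries of sorted zebrafish cells, grouped by their titles. The values are whole-number counts of reads per transcript row, as deposited by the authors without normalization. HISAT2 2.2.1, featureCounts 2.0.3 and build GRCz11 are named in the submitters' processing notes; neither strand use nor the handling of multiply aligned reads is stated in any source used here. RPKM and TPM columns, also deposited by the authors, entered no result. Of 75805 rows, 1 was kept per symbol, that of highest mean count (31 of the 53 genes had several rows), and 57 rows with names turned into dates were matched by accession where possible (46). RefSeq names of the assembly GRCz12tu matched 43 of the 53 by accession, all to the same symbol. No coordinates or sequences are printed.

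Tests used edgeR 4.0.16 in R 4.3.3 (filterByExpr by group, TMM scaling, glmQLFit with its current estimation, glmQLFTest) across all genes, with Benjamini-Hochberg adjustment over all genes tested and a threshold of 0.05. The embryonic comparison was fitted on 4 libraries, both adult comparisons on 5. A standard error is the absolute log2 change divided by the square root of F. TMM factors were 0.62 in the adult library and between 0.96 and 1.19 in the others. For a group at 0, folds are bounds taken at 3 counts in each library; for 1 to 3 counts they are ratios with a 95% Poisson interval. Code was tested on simulated data.

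Alternatives were RLE size factors, library totals, other filters, DESeq2 1.42.0, rows summed, leaving out each embryonic library, the replicate block and other sample sets; edgeR's older quasi-likelihood fit was added after seeing the data. Summing rows left the counts of itga2.2, itga5, itga7, itgav and parvab unchanged, so their calls moved only through the fit of all genes. It raised the total of ptk2ab, with 18 rows, 17.8 times, that of parvb, with 4 rows, 3.955 times and that of fermt1, with 2 rows, 2.0 times. No other total rose as much as that of ptk2ab. That of pxnb, with 8 rows, rose 6.615 times and that of tln1, with 5 rows, 4.835 times. That of pxna, with 2 rows, rose 1.293 times. Reads shared by the rows of a gene may thus have been counted once in each. Where a call ended with rows summed, repeated counting cannot be told apart from other effects of that setting. Genes that passed in any comparison were given in every library, with up to 4 further genes of each role by mean CPM, and up to 4 called genes per direction from the further list with at least 10 CPM. The genes and lists were chosen with earlier results of these data known. A further adhesion gene that the naming rule selected is not reported here.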

Additional observations from a re-analysis of the deposited data

How the results depend on the processing

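The 2 embryonic calls were the values most open to processing. Their number was 4 with RLE size factors or with library totals, 1 with every gene of at least 1 count or with edgeR's older quasi-likelihood fit, 10 with DESeq2 and 0 with transcript rows summed, where 15 genes were higher and 2 lower at an unadjusted p under 0.05. Leaving out 1 library gave between 0 and 8. With the replicate block there were 3 calls, itgb3a, itgb1b.1 (adjusted p = 0.045) and itgb1b.2 (0.0463), while pxna (0.0514) and, of the further adhesion genes, pak2a (0.0527) were not called; same-numbered libraries deviated together over 15589 genes (correlation 0.219), but 2 pairs do not establish that the numbers pair the libraries. The share of all genes called, 3.50% as reported, moved too. It was 3.86% with RLE size factors, 4.96% with library totals and 1.89% with every gene of at least 1 count. With the older quasi-likelihood fit it was 2.24%, with DESeq2 8.96%, with rows summed 1.25% and with the replicate block 3.75%. This share also moved in fits without 1 library, so the numbers of calls alone do not set these genes apart. For the further adhesion genes the embryonic count of 4 also moved when 1 library was left out. The adult counts stayed within 1.5 times of 15 and 19, between 13 and 18 and between 17 and 25 without 1 embryonic library. Over 83 gene results and 1009 alternative values, 865 kept direction and side of the threshold, 84 gained a call, 60 lost one and none reversed. These results were those of the set with a call in at least 1 setting, and those of the further genes that the naming rule selected. The tally is thus selected on calls and does not measure how stable the whole set was. The adult library has no replicate, and its floor of 1.37 CPM limits statements on genes near 0; the cause of the changes was not tested.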
